A study of Mus musculus with 6 samples.

Results

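The sarcomeric myosin heavy chain genes are 9 of the 56262 genes listed in the count table of fetal mouse leg muscle: *Myh3*, *Myh8*, *Myh2*, *Myh1*, *Myh4*, *Myh13*, *Myh7*, *Myh6* and *Myh7b*. They were chosen by name, as the genes whose product forms the thick filament of striated muscle, and their rows were found by matching Ensembl IDs to GENCODE M21 symbols. All 9 were among the 22071 genes that passed the filter on low counts, and the lowest count of any of them in a sample was 118. RNA was sequenced from leg muscle at embryonic day 18.5 in 3 WT samples and 3 KO samples. The KO fetuses lack *SYISL*, a long noncoding RNA that lies in an intron of *Synpo2*, and WT fetuses carry it. Parents of each genotype were mated among themselves, so WT and KO fetuses had different mothers, and genotype and mother cannot be told apart. It is not stated whether a sample was 1 fetus or a pool, so the p-values measure the spread between these samples only. No antibiotic or butyrate treatment is given for these samples.

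A myosin heavy chain carries the motor head that binds actin and splits ATP, and the long coiled tail that packs into the thick filament. Vertebrate muscle makes several such chains from separate genes and exchanges them during development. Embryonic (*Myh3*) and perinatal (*Myh8*) chains dominate fetal limb muscle, and after birth they give way to the adult fast chains IIa (*Myh2*), IIx (*Myh1*) and IIb (*Myh4*). The slow chain (*Myh7*) is made in slow fibers and in heart, *Myh6* encodes the alpha cardiac chain, *Myh13* the extraocular chain and *Myh7b* an ancient slow-tonic chain. In bulk RNA, fewer cells of a type and less RNA per cell cannot be told apart.

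Total counts ranged from 82054811 to 102233181 per sample, and the CPM values used here are counts scaled to a common library size with TMM factors. Other tissues differed strongly between the genotypes. All 10 epidermal markers were called lower in KO, and their summed level was 16182 to 24237 CPM in WT against 699.8 to 806.1 CPM in KO. All 6 red blood cell markers were also called lower, with sums of 3934 to 5174 CPM against 545.6 to 664.9 CPM. All 6 fat markers were called higher, with sums of 105 to 137 CPM against 339.6 to 402.0 CPM. Of 15 skeletal muscle markers 12 were called higher, and their sum was 13585 to 14621 CPM in WT against 26742 to 32699 CPM in KO. Of the other marker lists, 3 of 5 macrophage markers, 1 of 5 Schwann cell markers and 1 of 6 bone markers were called higher. In the other direction, 3 of 6 cartilage, 1 of 6 bone and 1 of 6 myoblast and satellite cell markers were called lower. Over all genes tested, 16.7% were called in either direction, 8.31% higher and 8.39% lower. A single call in such a short list is not read as a difference of the tissue. None of 6 fibroblast and 5 endothelial markers was called by edgeR, DESeq2 or limma-voom, while 5 and 4 of them were higher at an unadjusted p under 0.05. The share of all genes at an unadjusted p under 0.05 was not counted. At an adjusted p under 0.05 and any fold, 4838 of the genes tested were higher and 5098 lower in edgeR. Beyond a rescaling to the skeletal muscle markers, given near the end, the part of the tissue differences in the myosin results was not tested. The host gene *Synpo2* had a log2 fold change of 0.66 (adjusted p = 2.89e-05, edgeR), which does not show whether *SYISL* itself was deleted.

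The members of the family are close copies, and their sequences show where reads can and cannot tell them apart. *Myh3*, *Myh2*, *Myh1*, *Myh4*, *Myh8* and *Myh13* lie in this order on the plus strand of chromosome 11 (mm10, chr11:67078300-67371586), within 293.3 kb. Coding identity was 91.0% between *Myh2* and *Myh1*, 87.9% between *Myh4* and *Myh8* and 80.7% between *Myh3* and *Myh8*. Stretches of 90 coding bases were ranked by the bases identical in all 6 genes. Only stretches without alignment gaps and within a single exon of each gene were ranked. The most alike of them is printed from the GENCODE transcripts, with mm10 coordinates, and capitals mark differences from *Myh8*.
Myh8 (chr11:67288209-67288298): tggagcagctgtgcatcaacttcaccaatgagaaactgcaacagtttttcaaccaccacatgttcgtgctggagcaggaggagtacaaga
Myh3 (chr11:67088568-67088657): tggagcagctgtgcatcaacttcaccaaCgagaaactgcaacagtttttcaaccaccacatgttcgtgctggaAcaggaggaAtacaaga
Myh2 (chr11:67180785-67180874): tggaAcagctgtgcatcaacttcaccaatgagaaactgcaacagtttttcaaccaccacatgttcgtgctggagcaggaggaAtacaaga
Myh1 (chr11:67207430-67207519): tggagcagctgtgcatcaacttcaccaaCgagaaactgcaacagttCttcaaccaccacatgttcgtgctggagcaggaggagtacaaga
Myh4 (chr11:67246381-67246470): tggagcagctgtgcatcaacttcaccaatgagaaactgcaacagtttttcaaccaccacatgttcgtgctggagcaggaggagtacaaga
Myh13 (chr11:67341425-67341514): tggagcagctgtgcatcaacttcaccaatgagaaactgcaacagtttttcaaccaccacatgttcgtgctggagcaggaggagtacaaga
*Myh4* and *Myh13* did not differ from *Myh8* in this stretch, and *Myh3* differed at 3 bases.

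The least alike of the ranked stretches shows how the genes separate elsewhere, with capitals again marking differences from *Myh8*.
Myh8 (chr11:67299293-67299382): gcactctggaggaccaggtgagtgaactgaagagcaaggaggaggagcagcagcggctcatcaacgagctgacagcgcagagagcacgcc
Myh3 (chr11:67094977-67095066): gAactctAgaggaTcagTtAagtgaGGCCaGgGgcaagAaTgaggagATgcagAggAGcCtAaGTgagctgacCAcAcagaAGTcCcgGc
Myh2 (chr11:67190329-67190418): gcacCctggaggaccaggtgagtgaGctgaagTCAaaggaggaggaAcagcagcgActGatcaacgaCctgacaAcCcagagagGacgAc
Myh1 (chr11:67215863-67215952): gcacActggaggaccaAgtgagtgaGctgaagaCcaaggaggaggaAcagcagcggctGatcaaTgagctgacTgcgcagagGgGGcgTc
Myh4 (chr11:67254022-67254111): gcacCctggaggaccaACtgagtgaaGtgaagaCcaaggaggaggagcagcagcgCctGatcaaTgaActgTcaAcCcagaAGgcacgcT
Myh13 (chr11:67358130-67358219): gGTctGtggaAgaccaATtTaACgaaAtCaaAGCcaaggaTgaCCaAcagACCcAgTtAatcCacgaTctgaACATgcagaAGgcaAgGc
Here *Myh1* differed from *Myh8* at 12 bases, *Myh2* at 13, *Myh4* at 15, *Myh3* at 30 and *Myh13* at 34. Over the whole coding sequence, 1.70% of the 150-base stretches of *Myh8* also occurred in another member. This share was 0.317% for *Myh3*, 2.61% for *Myh1*, 5.84% for *Myh7* and 0 for *Myh7b*. *Myh6* and *Myh7*, neighbours on the minus strand of chromosome 14, were the most alike pair, with 91.7% coding identity. How reads that fit several genes were counted is not given in the sources used here.

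The sequence before the start site is printed for the gene that changed most in counts (*Myh8*), the one whose groups overlapped (*Myh3*) and the one with the largest fold change (*Myh1*). The sequences are RefSeq promoters on GRCm38.p6, plus strand, cut before the first annotated base of the gene.
Myh8 promoter (chr11:67276874-67277123): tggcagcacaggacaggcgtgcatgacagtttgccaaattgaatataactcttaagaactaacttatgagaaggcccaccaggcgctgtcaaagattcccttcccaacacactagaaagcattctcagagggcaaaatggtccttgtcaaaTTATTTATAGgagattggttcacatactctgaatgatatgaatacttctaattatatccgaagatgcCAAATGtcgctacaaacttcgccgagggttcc
Myh3 promoter (chr11:67078050-67078299): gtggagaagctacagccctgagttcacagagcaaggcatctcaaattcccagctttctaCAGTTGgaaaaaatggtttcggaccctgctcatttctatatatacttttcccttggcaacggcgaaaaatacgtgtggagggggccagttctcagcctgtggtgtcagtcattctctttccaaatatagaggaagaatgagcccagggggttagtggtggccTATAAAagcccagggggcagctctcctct
Myh1 promoter (chr11:67199852-67200051): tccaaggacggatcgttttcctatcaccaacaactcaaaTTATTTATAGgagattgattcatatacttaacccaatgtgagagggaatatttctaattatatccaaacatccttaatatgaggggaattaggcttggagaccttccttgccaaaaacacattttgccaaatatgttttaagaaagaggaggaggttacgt
Capitals mark matches on either strand to the E-box CANNTG, its form CAGCTG, the MCAT element CATTCC, the TATA box TATAAA, the CArG box and the MEF2 site. In the 250 bases before the RefSeq start, a MEF2 site match was found in *Myh8*, *Myh1* and *Myh4*, with the same letters TTATTTATAG in all 3. A TATAAA match on the other strand lies inside each of these. No MEF2 match was found in *Myh3* or *Myh2* in this window. Of 32851 RefSeq promoters of this length, 2.92% held a MEF2 match, 12.4% TATAAA, 12.6% CATTCC, 66.2% CANNTG, 13.0% CAGCTG and 1.47% a CArG box. The printed *Myh1* sequence ends short of its RefSeq start. The part not printed holds a TATAAA match 32 to 27 bases and a CATTCC match, on the other strand, 16 to 11 bases before that start. All these matches describe the letters only.

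Of the 9 genes, 7 were called higher in KO and 0 lower, beside 16.7% of all genes tested called in either direction, 8.31% higher and 8.39% lower. When counts were scaled to 15 skeletal muscle markers, by the median of their log deviations, 4 of the 9 were called higher and 2 lower. *Myh4*, *Myh6* and *Myh7* were then no longer called. With TMM scaling, the median log2 fold change of these markers was 0.83. Their sum, which this scaling did not use, was 2.16 times as high in KO. A call needed more than a 1.5-fold difference and an adjusted p below 0.05. Each adjusted p comes from the quasi-likelihood test of edgeR, adjusted by Benjamini-Hochberg over all genes tested. DESeq2 and limma-voom also called 7 higher and 0 lower, and 1 was lower in edgeR at an unadjusted p under 0.05. The median log2 fold change of the 9 genes was 0.99, against -0.0041 over all genes tested. The WT and KO values of 7 members did not overlap and were higher in KO, those of 1 (*Myh7b*) did not overlap and were lower, and those of *Myh3* overlapped. Over all genes tested, 55.9% had no overlap, of which the part higher in KO was 27.3% of the genes and the part lower 28.5%.

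**Figure D1:**
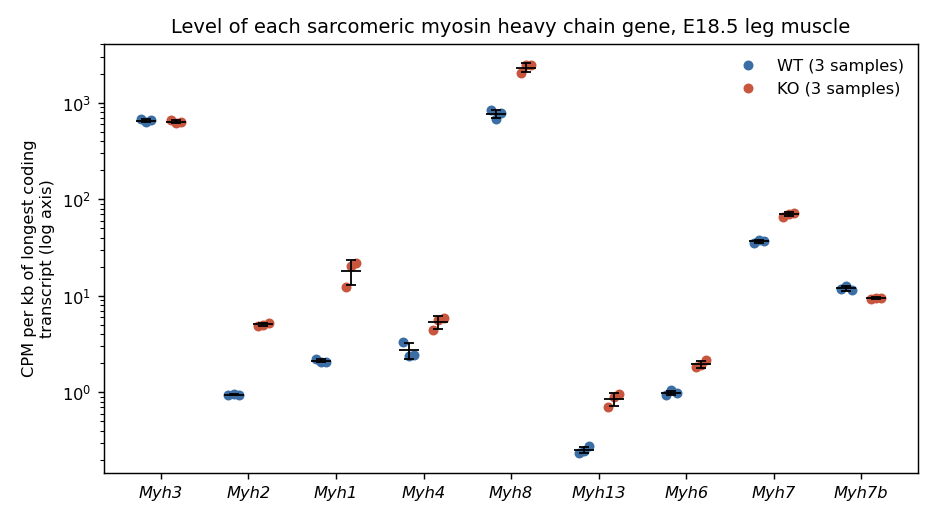
Level of each gene in CPM per kb of its longest coding transcript, on a log axis, with 1 point per sample and the mean ± SD of the 3 WT and the 3 KO samples. *Myh8* rises from 766 to 2304 CPM per kb, while the WT and KO points of *Myh3* overlap, with means of 652 and 634 CPM per kb.

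Of the developmental chains, *Myh8* was called higher in KO and *Myh3* was not called. *Myh8*, the perinatal chain, had 487789, 344282 and 507784 counts in WT and 1170169, 1422703 and 1467166 counts in KO. Every KO sample was well above every WT sample. The mean went from 4710 ± 501 CPM up to 14165 ± 1457 CPM (mean ± SD, n = 3, as for all means given). This is a log2 fold change of 1.59 ± 0.11 (SE, as for all fold changes; adjusted p = 3.08e-06).

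*Myh3*, the embryonic chain, had 380879, 308756 and 418298 counts in WT and 368336, 350350 and 368933 counts in KO. The groups overlapped. The WT mean of 3908 ± 151 CPM stood beside a KO mean of 3800 ± 127 CPM, and the log2 fold change was -0.04 ± 0.065 (adjusted p = 0.651). The log2 ratio of *Myh8* to *Myh3* counts within a sample was 0.26 ± 0.10 in WT and 1.89 ± 0.20 in KO, without overlap. An exact permutation test, two-sided, gave p = 0.1. With 3 samples in each group no smaller value can be reached, as in each permutation test that follows.

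The 3 adult fast chains together held 0.388% ± 0.025 of the summed counts of the 9 genes in WT, and all 3 were called higher in KO. *Myh1*, the IIx chain, had 1249, 1022 and 1304 counts in WT and 6809, 11506 and 12753 counts in KO. The lowest KO sample, replicate 1, was still far above the WT samples. The mean went from 12.6 ± 0.481 CPM up to 108 ± 31.2 CPM, and the log2 fold change of 3.10 ± 0.19 (adjusted p = 1.82e-06) was the largest among the 9 genes.

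*Myh2*, the IIa chain, had 530, 483 and 601 counts in WT and 2760, 2872 and 3094 counts in KO. The samples of each genotype lay close together. The log2 fold change was 2.42 (SE 0.057, adjusted p = 1.41e-08).

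*Myh4*, the IIb chain of the fastest fibers, had 1900, 1192 and 1561 counts in WT and 2492, 3196 and 3484 counts in KO. The groups did not overlap, but WT replicate 1 stood above the other WT samples. Its log2 fold change was 0.96 (SE 0.14, adjusted p = 4.42e-04), the smallest of the adult fast chains.

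The counts of the adult fast genes were split differently in WT and KO. *Myh4* held 51.6%, 44.2% and 45.0% of the summed *Myh1*, *Myh2* and *Myh4* counts in the WT samples, against 20.7%, 18.2% and 18.0% in the KO samples. *Myh1* held 33.9%, 37.9% and 37.6% in WT, against 56.5%, 65.5% and 66.0% in the KO samples. The share of *Myh2* was 16.6% ± 1.88 in WT and 18.4% ± 3.88 in KO. The shares of *Myh1* and *Myh4* did not overlap between genotypes (exact permutation p = 0.1 each), and those of *Myh2* did (exact permutation p = 0.6). The log2 ratio of *Myh4* to *Myh1* counts was 0.36 ± 0.21 in WT and -1.72 ± 0.24 in KO. The log2 ratio of *Myh1* to *Myh2* counts was 1.15 ± 0.081 and 1.78 ± 0.42, where KO replicate 1 lay just above the highest WT sample.

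*Myh13*, the extraocular chain, was the least counted member, with 131, 118 and 169 counts in WT and 381, 501 and 540 counts in KO. The groups did not overlap, and the log2 fold change was 1.75 (SE 0.13, adjusted p = 5.74e-06). Its counts were 0.0269% to 0.0343% of those of *Myh8* in WT and 0.0326% to 0.0368% in KO, ranges that overlap. Of the 150-base coding stretches of *Myh8*, 1.13% also occur in *Myh13*. Against *Myh3*, of whose stretches 0.317% occur in *Myh13*, its counts were 0.0344% to 0.0404% in WT and 0.103% to 0.146% in KO, without overlap. The part of reads from *Myh8* or *Myh3* in the *Myh13* counts was not tested. *Myh4* counts were 0.307% to 0.390% of those of *Myh8* in WT and 0.213% to 0.237% in KO, beside 0.265% of *Myh8* stretches that occur in *Myh4*. *Myh1* counts were 0.256% to 0.297% of those of *Myh8* in WT and 0.582% to 0.869% in KO, beside 0.300% of *Myh8* stretches that occur in *Myh1*. For *Myh2* the values were 0.109% to 0.140% in WT and 0.202% to 0.236% in KO, beside 0.106% of the stretches. At 150 bases, the WT values of *Myh1* and *Myh2* stood near the shared part and the KO values above it. For *Myh4* the shared part lay between the WT and KO values. This reading depends on the length of the stretches. The authors sequenced paired reads of 150 bases, before trimming. Of the 100-base coding stretches of *Myh8*, 2.78% occur in *Myh1*, 3.57% in *Myh2* and 1.52% in *Myh4*, above all of these WT and KO values. The part of reads from *Myh8* in the counts of these 3 genes was not tested.

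Of the slow and cardiac chains, *Myh7* and *Myh6* were called higher in KO and *Myh7b* was not called. *Myh7*, the slow chain, had 20555, 19045 and 23809 counts in WT and 37942, 41028 and 43419 counts in KO. Every KO sample was above every WT sample, with a log2 fold change of 0.93 (SE 0.051, adjusted p = 7.75e-07). *Myh6*, the alpha cardiac chain, had 546, 529 and 634 counts in WT and 1051, 1119 and 1275 counts in KO.

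The *Myh6* groups did not overlap either, and the log2 fold change was 0.99 (SE 0.078, adjusted p = 7.64e-06). *Myh6* counts were 2.70% ± 0.068 of *Myh7* counts in WT and 2.81% ± 0.11 in KO, and 5.84% of the 150-base coding stretches of *Myh7* also occur in *Myh6*. The part of reads from *Myh7* in the *Myh6* counts was not tested. Of 8 heart markers 4 passed the filter and 1 was called lower, *Myl7*, the atrial light chain, with 245 to 283 counts in WT and 7 to 10 in KO. *Tnni3* (log2 fold change 0.29, adjusted p = 0.110), *Ryr2* (0.28, adjusted p = 0.0483) and *Kcnj3* (-0.04, adjusted p = 0.817) passed the filter and were not called. The other 4 heart markers had at most 27 counts in a sample.

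*Myh7b* was lower in KO, with 6827, 6493 and 7454 counts in WT and 5295, 5596 and 5702 counts in KO. Its groups did not overlap, with a log2 fold change of -0.35 (SE 0.047, adjusted p = 2.57e-04). The change was under the 1.5-fold threshold, so it was not called, and 23.1% of all genes tested passed the adjusted p alone with a lower level in KO.

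**Figure D2:**
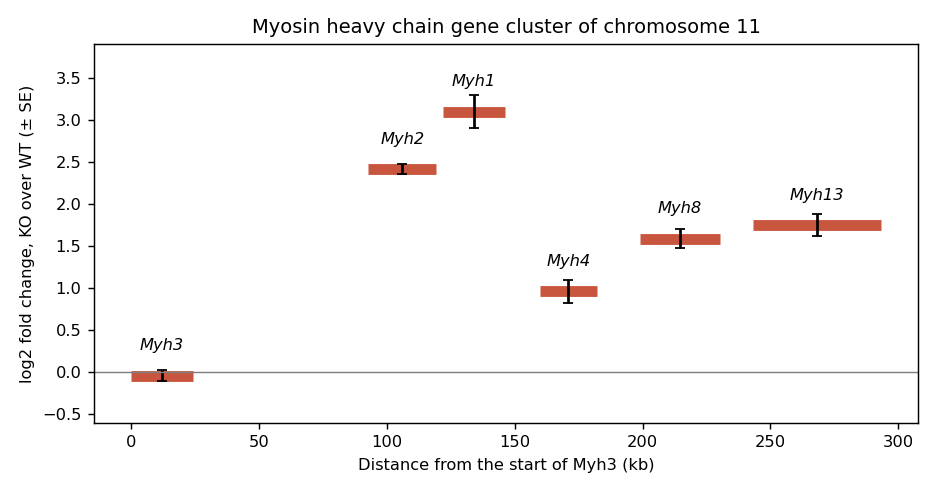
Log2 fold change of KO over WT (± SE, edgeR) of the 6 clustered genes against distance in kb from the start of *Myh3*, each bar spanning the gene. *Myh3* lies at the end of the cluster at -0.04 and *Myh1* has the highest value, 3.10.

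In the order of the chromosome, the log2 fold changes of the cluster were -0.04 for *Myh3*, 2.42 for *Myh2*, 3.10 for *Myh1*, 0.96 for *Myh4*, 1.59 for *Myh8* and 1.75 for *Myh13*. A gap of 68.7 kb separates *Myh3* from *Myh2*. The lincRNA 2310065F04Rik lies in this gap and was looked at after its values were seen. Counts of 128, 103 and 150 in WT stood against 329, 463 and 440 in KO, with a log2 fold change of 1.68 (adjusted p = 8.36e-06).

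Several genes are annotated over the members on the other strand. The strand setting is not stated, so reads within the exon bases that such a gene shares with the member cannot be told apart from those of the member. Myhas, antisense to *Myh1* and sharing 515 exon bases with it, had 4, 3 and 8 counts against 24, 45 and 47 in KO, a log2 fold change of 2.91 (adjusted p = 2.58e-04). 9430073C21Rik, antisense at *Myh2* and sharing 237 exon bases with it, had 16, 6 and 10 counts against 50, 49 and 53, a log2 fold change of 2.22 (adjusted p = 1.39e-04). Mhrt, antisense at *Myh7* and sharing 484 exon bases with it, had 23, 20 and 23 counts against 59, 61 and 49, a log2 fold change of 1.33 (adjusted p = 3.68e-04).

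All 3 were called higher, as were their partners. Gm31251, also at *Myh7*, had a log2 fold change of 0.91 (adjusted p = 0.00584), and Gm49130 at *Myh6* 0.22 (adjusted p = 0.624). Trpc4ap, a coding gene that shares 37 exon bases with the end of *Myh7b*, had a log2 fold change of -0.02 (adjusted p = 0.710). Mir208a, Mir208b, Mir499, Mir6923, Gm26476, Gm29015 and Gm17428 did not pass the filter and had at most 13 counts in a sample.

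The summed counts of the 9 genes made up 0.981%, 0.831% and 0.941% of all counts in WT and 1.71%, 1.86% and 1.89% in KO samples. The groups did not overlap (exact permutation p = 0.1). Without *Myh8*, the sum was 0.435% ± 0.021 of all counts in WT and 0.437% ± 0.017 in KO, with overlap (exact permutation p = 0.9). Of a difference of 0.900 percentage points in the sum, 0.00173 was left without *Myh8*. This is a net value of genes that moved in both directions. Scaled by library size only, the log2 fold change was -0.11 for *Myh3* (adjusted p = 0.248, edgeR) and 0.86 for *Myh7*.

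**Figure D3:**
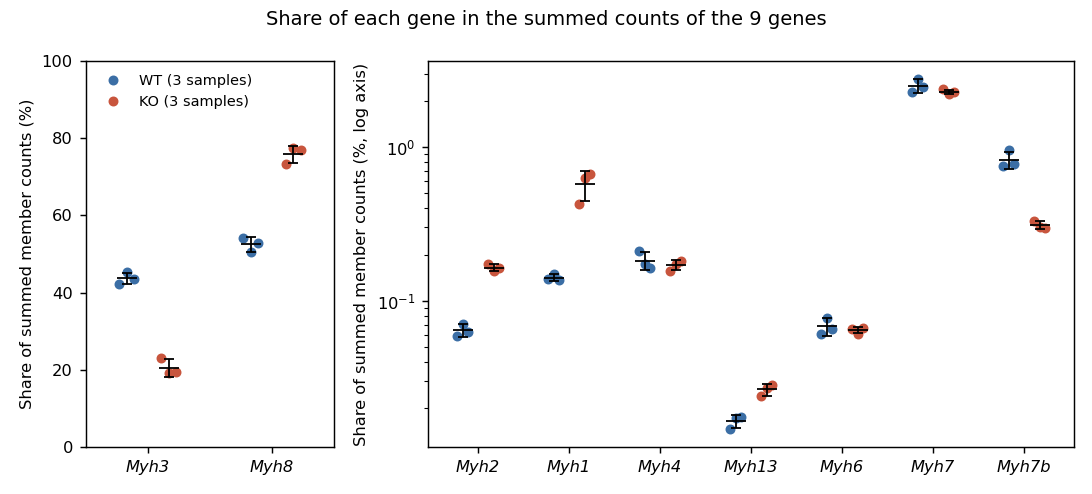
Share of each gene in the summed counts of the 9 genes, in percent, with 1 point per sample and the mean ± SD of each genotype; the right panel has a log axis. The mean share of *Myh3* is 43.7% in WT and 20.5% in KO, and that of *Myh8* is 52.5% and 75.9%.

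As a share of these summed counts, *Myh8* held 54.2%, 50.5% and 52.8% in WT and 73.4%, 77.4% and 77.0% in KO. *Myh3* held 42.3%, 45.3% and 43.5% in WT and 23.1%, 19.1% and 19.4% in KO. Neither share overlapped between genotypes (exact permutation p = 0.1 each). Both together held 96.2% ± 0.37 in WT and 96.4% ± 0.069 in KO, which overlapped (exact permutation p = 0.6).

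*Myh1* held 0.141% ± 0.0075 of the summed counts in WT and 0.574% ± 0.13 in KO, and *Myh2* held 0.0641% ± 0.0061 and 0.164% ± 0.0085, both higher without overlap. *Myh13* was also higher without overlap, at 0.0165% ± 0.0017 and 0.0265% ± 0.0023. *Myh7b* was lower without overlap, at 0.829% ± 0.11 and 0.312% ± 0.018. Each of these 4 had an exact permutation p = 0.1. *Myh7* held 2.52% ± 0.26 and 2.30% ± 0.075, and its groups overlapped (exact permutation p = 0.2). *Myh4* (0.183% and 0.171%) and *Myh6* (0.0680% and 0.0645%) overlapped as well (exact permutation p = 0.6 and p = 0.8). The small differences of *Myh7*, *Myh4* and *Myh6* turned to the other direction in counts per kb of merged exons, and kept their direction per kb of the longest coding transcript (-0.206, -0.0109 and -0.0031 percentage points).

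The shares and ratios of counts given so far are not corrected for length, so they compare the genotypes and not the levels of different genes, which were compared per length. In CPM per kb of the longest coding transcript, the order in WT was *Myh8* (766 ± 81.5), *Myh3* (652 ± 25.3), *Myh7* (36.6 ± 1.10), *Myh7b* (12.0 ± 0.686), *Myh4* (2.73 ± 0.525), *Myh1* (2.13 ± 0.081), *Myh6* (0.991 ± 0.0524), *Myh2* (0.949 ± 0.0206) and *Myh13* (0.253 ± 0.0197). *Myh6* and *Myh2* did not differ beyond their spread there. In KO the order was *Myh8* (2304 ± 237), *Myh3* (634 ± 21.2), *Myh7* (69.6 ± 3.42), *Myh1* (18.2 ± 5.25), *Myh7b* (9.40 ± 0.204), *Myh4* (5.32 ± 0.799), *Myh2* (5.06 ± 0.202), *Myh6* (1.97 ± 0.160) and *Myh13* (0.852 ± 0.135), with *Myh4* and *Myh2* within their spread. Per kb of merged exons, which for *Myh8* count 11772 bases against 6149 in its longest coding transcript, *Myh3* (645 ± 25.0) came before *Myh8* (400 ± 42.6) in WT.

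**Figure D4:**
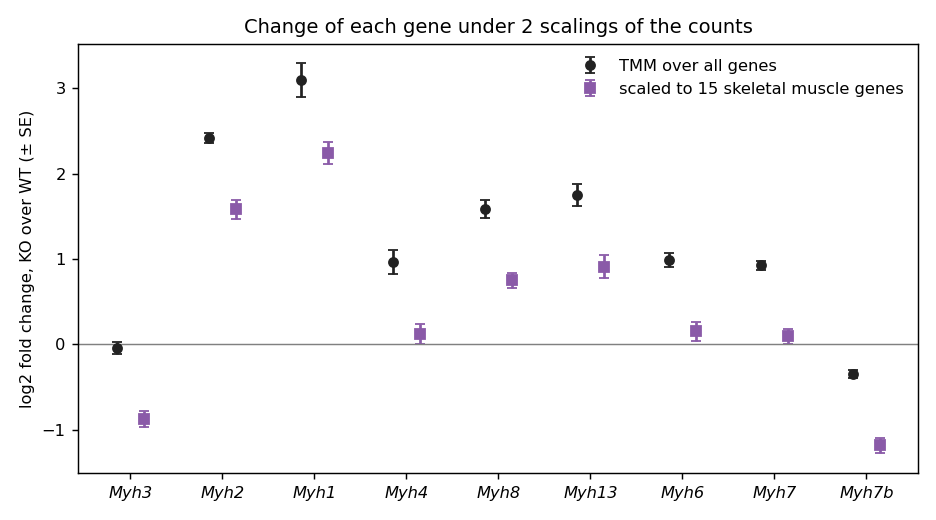
Log2 fold change of KO over WT (± SE, edgeR) of each gene with TMM scaling over all genes and with scaling to 15 skeletal muscle genes. The second scaling moves every gene down, and *Myh3* and *Myh7b* to -0.87 and -1.18.

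When counts were scaled to the 15 skeletal muscle markers, the median of all genes moved to -0.83, so each value is read against the muscle genes and not the whole tissue. *Myh1* (2.24), *Myh2* (1.58), *Myh13* (0.91) and *Myh8* (0.75) were still called higher on this log2 scale. *Myh4* (0.12, adjusted p = 0.343), *Myh6* (0.15, adjusted p = 0.205) and *Myh7* (0.09, adjusted p = 0.316) were not called. *Myh3* (-0.87, adjusted p = 4.90e-08) and *Myh7b* (-1.18, adjusted p = 8.60e-10) were called lower. With upper-quartile factors, the log2 fold change of *Myh3* was 0.03 (adjusted p = 0.783), on the other side of 0 from its value with TMM.

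Of 16 thick filament partners and myosin chaperones, 10 were called higher and 0 lower by edgeR, DESeq2 and limma-voom alike. Over all genes tested, edgeR called 8.31% higher and 8.39% lower. The median log2 fold change of the list was 0.84 in edgeR. At an unadjusted p under 0.05, edgeR had 13 higher and 1 lower, without a share over all genes at that threshold. *Myl1*, a fast essential light chain, rose from 2299 ± 48.9 CPM to 5666 ± 875 CPM (log2 fold change 1.30). *Mylpf*, the fast regulatory light chain, rose by 1.20 and *Mybpc1*, the slow myosin-binding protein C, by 1.07. *Myom2* and *Myom1*, proteins of the M band, had log2 fold changes of 0.89 and 0.85. *Myl4*, the light chain of embryonic muscle and atria, had a log2 fold change of -0.11 (adjusted p = 0.115). The log2 fold changes of the list ran from -0.37 to 4.31. The highest was that of *Mybpc2*, looked at after its values were seen (8.21 ± 1.74 CPM in WT, 164 ± 35.6 CPM in KO).

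Of 22 transcription regulators of myosin genes, 0 were called higher and 2 lower, beside 8.31% and 8.39% of all genes tested. The 2 called lower, a share near that of all genes, were *Tead4* (log2 fold change -0.61, adjusted p = 2.12e-05) and *Thrb* (-1.23, adjusted p = 4.58e-04), a thyroid hormone receptor. At an adjusted p under 0.05 without the fold threshold the list held further genes, such as *Mef2c* (0.30, adjusted p = 0.00120) and *Mef2d* (0.20, adjusted p = 0.0136). *Mef2a* (0.01) and *Nfix* (0.10) did not pass. The median of the list was 0.14. DESeq2 and limma-voom also called 0 higher and 2 lower. At an unadjusted p under 0.05 edgeR had 12 higher and 4 lower. Of the 22071 genes tested, 4838 were higher and 5098 lower at an adjusted p under 0.05 and any fold. The share of all genes at the unadjusted p was not counted, so the 12 and 4 are not read as a result about the list.

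Of the 4 smooth muscle and nonmuscle myosin heavy chains, *Myh11*, the smooth muscle chain, rose by 1.07 (adjusted p = 1.55e-06) and *Myh14*, a nonmuscle chain, by 0.62 (adjusted p = 0.00260). *Myh9* (-0.02, adjusted p = 0.757) and *Myh10* (-0.03, adjusted p = 0.654), the widespread nonmuscle chains, were not called. Of the 5 smooth muscle markers 0 were called by edgeR, DESeq2 or limma-voom, and 2 were higher and 1 lower at an unadjusted p under 0.05 in edgeR.

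Likeness of pattern was measured as the root mean square distance between centred log2 CPM over the 6 samples, among 12363 other genes with a mean of at least 5 CPM. Nearest to *Myh8* were *Myadml2* (0.035), *Casq1* (0.048) and *Lpl* (0.057). Nearest to *Myh1* were *Mettl21c* (0.20), *Rpl3l* (0.24) and *Scd1* (0.26). Nearest to *Myh7* were *Trim21* (0.026), *Xirp1* (0.034) and *Adamtsl4* (0.041), and nearest to *Myh3* were *Pank2* (0.012), *Specc1l* (0.014) and *Mtfmt* (0.014).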

How the data were processed

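Leg muscle RNA-seq of 3 WT and 3 KO samples was used. The authors trimmed reads with Trim Galore 0.6.6, mapped them with HISAT2 2.2.1 to mm10 and counted them per gene with featureCounts 2.0.1 (versions from the submitters' processing notes). The authors deposited these raw counts without normalization. The annotation, the strand setting and the treatment of reads that fit several genes are not given in the sources used here. Of the gene IDs, 55227 matched GENCODE M21 and 1035 did not.

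Counts were tested in R 4.3.3 with edgeR 4.0.16 (filterByExpr, TMM, quasi-likelihood F-test, genotype only) and adjusted by the Benjamini-Hochberg method over 22071 genes. The fit was tested on simulated data for KO against WT with 22071 genes. It called 100 of 100 genes changed 2-fold, 100 of 100 changed 3-fold and 4 unchanged genes. The simulated spread between samples was the one estimated by the fit itself. The changed genes were drawn above a minimum level, with as many raised as lowered. A large shift between tissues, as seen in these samples, was not simulated, so the scaling was not tested by it. Standard errors were derived from the F statistic. Shares, ratios and sums were compared by exact permutation over the 6 samples with scipy 1.17.1, and coding sequences were aligned with mafft 7.526. Merged exons and coding transcripts came from GENCODE M21, and coding identity stands in for protein identity. Alternatives were RLE, upper-quartile and library-size scaling, TMM without the 9 genes, scaling to skeletal muscle genes, DESeq2 1.42.0, limma-voom (limma 3.58.1), other filters and thresholds, a replicate block, other lengths and leaving out each sample. Counts per kb of the longest coding transcript were added after seeing the data. Named were the 9 genes, genes overlapping them, up to 6 genes of each list by level and *Synpo2*. Also named were the 3 nearest patterns of *Myh3*, *Myh8*, *Myh7* and *Myh1*. *Thrb*, *Tead4*, *Mybpc2* and 2310065F04Rik were chosen after their values were seen. The members and lists were chosen with earlier results of these data known.

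Replicates of a genotype differed by more than counting noise (chi-square per gene, averaged over genes, 5.17 to 35.5).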

Additional observations from a re-analysis of the deposited data

How the results depend on the processing

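The calls of *Myh1*, *Myh2*, *Myh8* and *Myh13* held under all 16 alternatives run. Scaling to the skeletal muscle genes gave 304 genes called higher and 16168 lower, and log2 fold changes of 0.12 for *Myh4*, 0.15 for *Myh6*, 0.094 for *Myh7*, -0.87 for *Myh3* and -1.18 for *Myh7b*, and upper-quartile factors gave 0.027 for *Myh3*. Without a fold threshold 4838 genes were called higher and 5098 lower, and at a fold over 2 the counts were 774 higher and 1269 lower. Samples sharing a replicate number were not treated as pairs, since the labels give no pairing. Correlations of their deviations from the group means were -0.20, -0.13 and 0.05, against -0.13 to 0.21 between different numbers. With so few samples, these values cannot show whether samples were collected as pairs. The replicate block gave 1744 and 1777 calls, and changed no call among the 9 genes.

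Differences in share (KO minus WT, percentage points) moved with the denominator. Per kb of merged exons they were -26.5 (*Myh3*), 26.0 (*Myh8*), 0.149 (*Myh2*), 0.696 (*Myh1*), 0.0197 (*Myh13*), 0.0262 (*Myh4*), 0.0100 (*Myh6*) and 0.186 (*Myh7*). Per kb of exon sequence in no other member they were -26.4, 25.8, 0.163, 0.779, 0.0194, 0.0236, 0.00968 and 0.160 in the same order. Without *Myh8* in the sum they were -7.03 (*Myh3*), 0.547 (*Myh2*), 2.13 (*Myh1*), 0.0763 (*Myh13*), 0.330 (*Myh4*), 0.126 (*Myh6*) and 4.27 (*Myh7*). Per kb of merged exons, the log2 ratio of adult fast to developmental genes was 1.44 higher in KO and that of *Myh7* to the cluster 0.11 higher, against -0.14 from counts. Why these moved was not tested beyond the change of denominator.

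Leaving out 1 sample, the *Myh4* share difference ran from -0.0220 to 0.00236 (above 0 without WT replicate 1) and the *Myh6* one from -0.00721 to 0.00125 (above 0 without WT replicate 2). The *Myh7* one, -0.221 with all samples, was -0.0837 without WT replicate 2 and -0.339 without WT replicate 1. With 3 samples a group, no permutation p can pass 0.05.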
